A study of Caenorhabditis elegans with 27 samples.

Results

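The genes described here are the nuclear genes for oxidative phosphorylation in Caenorhabditis elegans that carry a standard gene name in the deposited count table. They were chosen by symbol: those starting with nuo-, nduf-, ucr-, sdha-, sdhb-, sdhd-, cyc-, cox-, asb- or asg-, with gas-1, lpd-5, mev-1, isp-1 and the named atp genes of the ATP synthase, leaving out cco-1, which is an RNAi target, and the genes of mitochondrial DNA. This gave 37 of 46738 genes, and all 37 passed the filter on low counts. They are 12 genes of complex I, 5 of complex II, 6 of complex III, 2 cytochrome c genes, 4 genes that assemble complex IV and 8 of the ATP synthase (complex V). The 4 cox- genes found by this rule are all assembly genes; the structural subunits of complex IV appear in the table under other names and are counted separately below. Whole animals of the wild-type N2 background carrying the hsp-6::GFP reporter gave the RNA. They were fed RNAi clones in HT115 bacteria from the egg onwards at 20 °C and were harvested 2 days later, at the L4 to young adult stage. There were 9 groups of 3 libraries: empty vector (ev), cbp-1, atfs-1, cco-1 (50% clone, 50% ev), mrps-5 (50% clone, 50% ev), and mixtures of 50% cco-1 or 50% mrps-5 with either 25% cbp-1 and 25% ev or 50% atfs-1. The labels give no share for cbp-1 or atfs-1 fed alone. In RNA from whole worms, fewer cells of a type and less RNA per cell cannot be told apart. The labels do not say that the 3 libraries of a group came from separate cultures, so p-values measure only the spread between libraries, which may be technical.

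Oxidative phosphorylation moves electrons from NADH (complex I) or succinate (complex II) through ubiquinone to complex III, from there on cytochrome c to complex IV, and uses the proton gradient built on the way to make ATP at complex V. Complexes I, III, IV and V combine subunits from the nucleus and from mitochondrial DNA, whereas complex II is wholly nuclear. Reduced function of several of these genes, among them isp-1, nuo-6, gas-1 and mev-1, is known to change lifespan or stress resistance in worms. Of the RNAi targets, cco-1 encodes a structural subunit of complex IV and mrps-5 a mitochondrial ribosomal protein. The product of cbp-1 is a histone acetyltransferase related to mammalian CBP and p300. The fourth target, atfs-1, codes for a transcription factor that acts in the mitochondrial stress response. The study asked how cbp-1 bears on the response to mitochondrial stress.

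Gene counts summed to 20672073 to 30938572 per library. The share of counts on lines that name no gene moved with the groups: it was 15.9 to 16.1% in ev and 9.32 to 9.36% in cbp-1, 9.47 to 9.73% in cco-1 and 8.71 to 8.76% in cco-1+cbp-1, and 13.7 to 14.2% in mrps-5 and 10.19 to 10.25% in mrps-5+cbp-1 libraries. Its part in the cbp-1 values was not tested. In counts scaled to library size (CPM, mean ± SD, n = 3), cco-1 was at 302 ± 8.62 in ev and 169 ± 1.87 in cco-1 worms, mrps-5 at 105 ± 3.59 in ev and 83.2 ± 3.44 in mrps-5 worms, and cbp-1 at 269 ± 10.5 in ev and 208 ± 2.23 in cbp-1 worms. The target cco-1 was also at 215 ± 7.4 CPM in mrps-5 worms, fed no cco-1 clone, and at 233 ± 66.5 in atfs-1 worms. Its difference between mrps-5 and cco-1 worms did not pass (log2 change 0.34 ± 0.12, edgeR test, adjusted p = 0.0715). In the mixtures cbp-1 was at 276 and 275 CPM, below 325 in cco-1 and 321 in mrps-5 worms but not below ev. Values of the cco-1 and mrps-5 worms and of the mixtures cross the library sets below when set against ev. The atfs-1 count was not lower in the atfs-1 groups (77.7 ± 1.06 in ev and 90.5 ± 4.05 in atfs-1), so these groups are named by their labels. The 27 libraries formed a pair of sets when scored over 457 genes outside the 37 that set the first atfs-1 library apart from its replicates. The first set held the 3 ev, the 3 cbp-1 and the first atfs-1 library (scores 0.54 to 0.71) and the second the other 20 libraries (-0.38 to -0.13). Across these genes the score axis followed exon length with a Spearman correlation of -0.662. Each mixture against its own mitochondrial clone, cbp-1 against ev, and mrps-5 against cco-1 lie within 1 set. The comparisons of cco-1, mrps-5 and atfs-1 with ev cross the sets, and they are given last, with and without a term for the set.

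In ev worms the ATP synthase genes had the highest median level per length of the complexes. The highest single gene was atp-2, the catalytic beta subunit (WBGene00000229, chromosome III, 5228417 to 5230536 in WBcel235), with 1258 CPM per kilobase of exon. The median over the 8 complex V genes was 431, against 211 over complex III, 158 over complex I and 152 over complex II. The assembly genes of complex IV were far lower, with a median of 26.6 CPM per kilobase, a highest value of 65.1 for cox-15 and a lowest of 8.21 for cox-10. Both cytochrome c genes encode the same electron carrier, but their levels were far apart: cyc-2.1 had 657 CPM per kilobase and cyc-2.2 had 22.2. Together the 37 genes took 10189 ± 178 CPM in ev. Over the 9 groups this sum was lowest in mrps-5+cbp-1 worms (8311 ± 358) and highest in mrps-5 worms (10772 ± 43.2). It was 8410 ± 85.9 in cbp-1 and 8856 ± 53.3 in cco-1+cbp-1 worms, and every library of the 3 groups fed cbp-1 lay below every library of the other 6 groups.

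Feeding the cbp-1 clone lowered most of these genes, whichever clone it was added to. Against ev, 32 of the 37 were lower and 1 was higher in cbp-1 worms (edgeR quasi-likelihood test, Benjamini-Hochberg adjusted p below 0.05 over 16435 genes). Of all genes tested, 28.5% were called lower and 30.2% higher in that comparison. In cco-1+cbp-1 against cco-1, 30 were lower and 0 higher (background 25.3% lower, 21.9% higher), and in mrps-5+cbp-1 against mrps-5, 31 were lower and 0 higher (23.4% and 19.4%). In both mixtures 0 were higher at an unadjusted p below 0.05, and 0 by DESeq2. The median log2 change of the 37 was -0.25, -0.26 and -0.36, beside 0.02, -0.02 and -0.01 over all genes tested. These 3 comparisons share no library, and 28 of the 37 genes were lower in all 3; 15.7% of all genes tested were. The falls were modest in size, and 3 genes reached a log2 change of -0.6 or beyond in mrps-5 worms besides cox-17: ucr-2.2, gas-1 and asg-2.

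**Figure D1:**
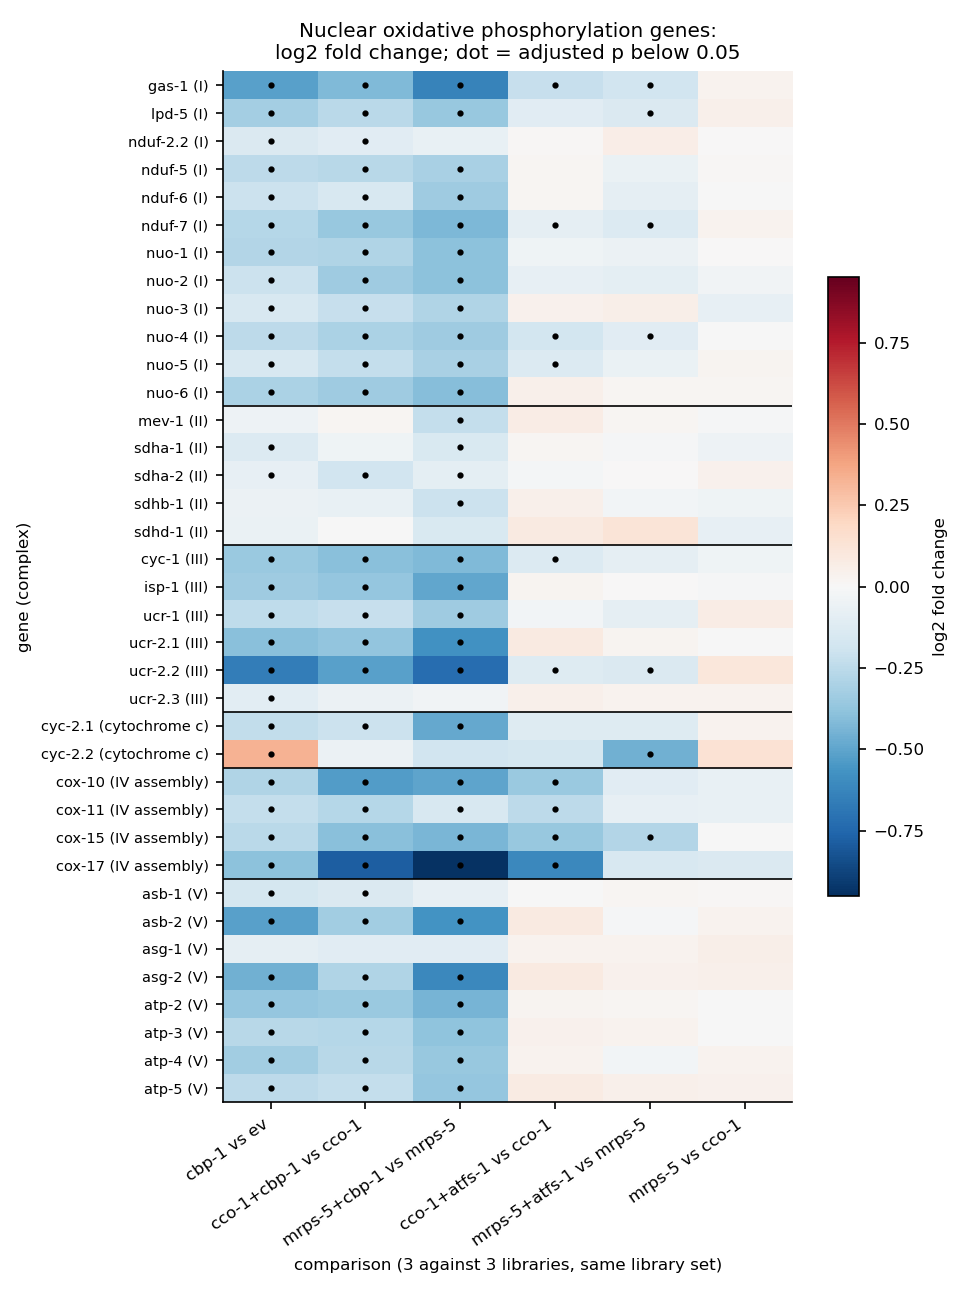
Log2 fold change of each of the 37 genes (rows, with the complex in brackets) in 6 comparisons of 3 against 3 libraries within 1 library set (columns); blue is lower, red higher, and a dot marks an adjusted p below 0.05. The 3 columns with cbp-1 are blue with dots for 32, 30 and 31 genes, the atfs-1 columns for 10 and 7, and the last column has no dot.

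Complex I, which oxidises NADH, was lower throughout. Of its 12 genes, 12, 12 and 11 were lower when cbp-1 was added to ev, cco-1 and mrps-5. The largest falls were in gas-1 (WBGene00001520, chromosome X, 15586786 to 15590397), a core subunit. It had 151, 163 and 153 CPM in the ev libraries and 108, 107 and 112 in the cbp-1 libraries. The cco-1 libraries had 173.9, 176.3 and 173.6 CPM and the cco-1+cbp-1 libraries 127, 134 and 130. In the mrps-5 libraries it had 181, 177 and 178 CPM and with cbp-1 added 115, 119 and 111. No library fed cbp-1 overlapped its control. The log2 changes were -0.51 ± 0.03 (± standard error; adjusted p = 2.27e-16), -0.42 ± 0.03 (8.09e-14) and -0.63 ± 0.03 (4.19e-19). nduf-7, a core subunit that carries an iron-sulfur cluster, changed by -0.27 ± 0.03, -0.36 ± 0.03 and -0.43 ± 0.03 (adjusted p = 1.65e-09, 1.03e-12 and 1.62e-14). nuo-6, an accessory subunit (chromosome I, 7068116 to 7069186), changed by -0.30, -0.34 and -0.40. The 1 exception in the last comparison was nduf-2.2, a core subunit gene, with -0.07 ± 0.03 (adjusted p = 0.0983); it was lower in the other comparisons by 0.14 and 0.10 on the log2 scale.

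Complex III passes electrons from ubiquinol to cytochrome c, and 6, 5 and 5 of its 6 genes were lower. ucr-2.2, a core protein (WBGene00011679, chromosome X, 15173904 to 15178145), had 112, 121 and 123 CPM in ev and 74.2, 77.2 and 74.5 in cbp-1 libraries. With cco-1 it had 105, 103 and 111 CPM, and 77.3, 73.5 and 71.6 when cbp-1 was added. With mrps-5 it had 114, 115 and 114 CPM, and 70.8, 71.4 and 64.6 when cbp-1 was added. In each arm the libraries with cbp-1 were all below those without it, by log2 changes of -0.66 ± 0.05, -0.52 ± 0.05 and -0.73 ± 0.05 (adjusted p = 4.43e-16, 7.89e-13 and 5.73e-17). Of the other members, cyc-1, which encodes cytochrome c1 (WBGene00000869, chromosome I), had 425 ± 2.61 CPM in ev and 332 ± 3.55 with cbp-1 (-0.35 ± 0.03, adjusted p = 1.07e-11), and its changes in the mixtures were -0.40 and -0.42. isp-1, the Rieske iron-sulfur protein (WBGene00002162, chromosome IV), gave -0.34, -0.37 and -0.49 (adjusted p = 1.04e-09, 1.31e-10 and 6.52e-14). ucr-2.3 was the least changed of the 6, with -0.10, -0.06 and -0.04, and it passed only in cbp-1 against ev (adjusted p = 0.0353).

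Complex V makes ATP, and 7, 7 and 6 of its 8 genes were lower. atp-2 had 2374, 2479 and 2424 CPM in ev and 1880, 1844 and 1913 in cbp-1 libraries. Its cco-1 libraries had 2744, 2750 and 2905 CPM and its cco-1+cbp-1 libraries 2224, 2162 and 2178. Its mrps-5 libraries had 2801, 2803 and 2761 CPM and its mrps-5+cbp-1 libraries 2105, 2121 and 1921. The libraries with cbp-1 lay below their controls in every arm, and the 6 libraries of cco-1 and mrps-5 were above all others without cbp-1 except those of the atfs-1 mixtures. The log2 changes of atp-2 with cbp-1 were -0.37 ± 0.04, -0.36 ± 0.04 and -0.44 ± 0.04 (adjusted p = 5.52e-11, 1.76e-10 and 4.83e-13). asb-2, which encodes the stator subunit b (WBGene00000207, chromosome X), had 335 ± 4.24 CPM in ev and 234 ± 8.99 with cbp-1, and its 3 changes were -0.52, -0.33 and -0.57 (adjusted p = 4.17e-13, 3.5e-08 and 3.93e-14). atp-3, the stator subunit OSCP, changed by -0.26, -0.27 and -0.38. asg-1, for subunit g, did not pass in any arm (-0.09, -0.10 and -0.11), and its X-linked copy asg-2 changed by -0.46, -0.28 and -0.62. With a term for the library set, asg-1 passed in each arm at the same log2 changes (edgeR test, adjusted p = 0.0199, 0.00692 and 0.00599).

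Complex II, which feeds electrons from succinate, had smaller values. Of its 5 genes 2, 1 and 4 were lower, and their medians were -0.06, -0.04 and -0.15. Over all genes tested 28.5%, 25.3% and 23.4% were lower, so the first 2 counts were near the background. sdha-1, a flavoprotein gene, had 212, 223 and 222 CPM in ev and 197, 205 and 199 in cbp-1 libraries. In the cco-1 arm it had 210, 213 and 214 CPM without and 209.6, 206 and 202 with cbp-1, so these groups nearly met. Its changes were -0.13 ± 0.04 in cbp-1 against ev (adjusted p = 0.00927), -0.04 ± 0.04 with cco-1 (0.416) and -0.15 ± 0.04 with mrps-5 (0.00471). sdha-2 gave -0.08, -0.18 and -0.10, all of which passed, and sdhb-1, the iron-sulfur subunit, passed with mrps-5 alone (-0.20, adjusted p = 0.000426). The membrane anchor gene mev-1, whose mutation makes worms sensitive to oxygen, gave -0.05 ± 0.07, 0.02 ± 0.07 and -0.23 ± 0.07, and the last passed (adjusted p = 0.0166). sdhd-1, the other anchor, did not pass in any arm. Whether the complexes differ from each other was not tested, since the genes were grouped with results of these data known.

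The assembly genes of complex IV, which insert copper and heme into the enzyme, were lower in all 3 arms, 4 of 4 each time. cox-17, a copper chaperone gene (WBGene00018240, chromosome III, 190986 to 191981), had the largest changes of all 37 genes in both mixtures, at a low level. It had 7.21, 7.16 and 6.63 CPM in ev and 5.22, 5.32 and 5.51 in cbp-1 libraries. It had 7.80, 7.53 and 7.53 CPM with cco-1 and 4.44, 4.69 and 4.15 with cbp-1 added, and 7.21, 6.23 and 7.26 CPM with mrps-5 and 3.78, 3.43 and 3.60 with cbp-1 added. No library with cbp-1 overlapped its controls. The log2 changes were -0.39 ± 0.10, -0.78 ± 0.10 and -0.94 ± 0.12 (adjusted p = 0.00111, 2.18e-08 and 5.27e-09). cox-15 and cox-10, which act in heme synthesis for the enzyme, changed by -0.25, -0.40 and -0.43 and by -0.28, -0.53 and -0.50. cox-11, for copper insertion, gave -0.23, -0.27 and -0.15.

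The pair of cytochrome c genes parted most in cbp-1 against ev. cyc-2.1 (WBGene00017121, chromosome IV) was lower in every arm, by log2 changes of -0.24 ± 0.05, -0.21 ± 0.05 and -0.49 ± 0.05 (adjusted p = 0.000174, 0.000953 and 6.52e-10). cyc-2.2 (WBGene00013854, chromosome V) was the 1 member that rose with cbp-1 alone: it had 10.92, 8.601 and 9.607 CPM in ev and 12.12, 13.02 and 11.56 in cbp-1 libraries, which do not overlap (0.33 ± 0.09, adjusted p = 0.00185). In the mixtures it did not pass (-0.06 and -0.19). The log2 ratio of cyc-2.1 to cyc-2.2 was lower with cbp-1 than without by 0.34 on average over the 3 arms (exact permutation test within arms, two-sided, 9 against 9 libraries, p = 0.00075, adjusted p = 0.000875 over 7 gene pairs). The differences were -0.57, -0.15 and -0.30 in the ev, cco-1 and mrps-5 arms. In the cco-1 arm the libraries overlapped, with ratios of 5.27 to 5.55 without and 5.13 to 5.32 with cbp-1.

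**Figure D2:**
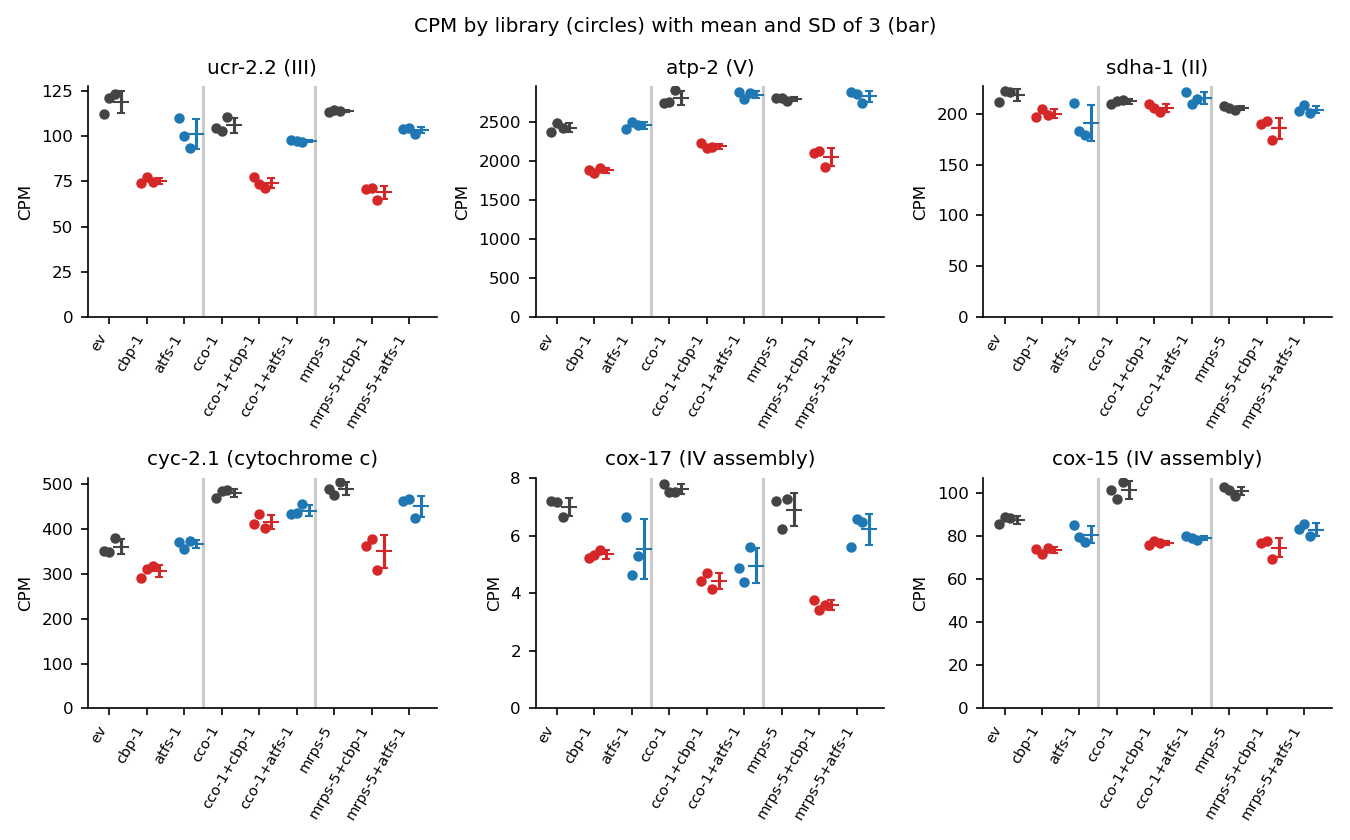
CPM by library (circles) with the mean and SD of 3 libraries (bars) in the 9 groups, for 6 of the 37 genes; black marks the vector or mitochondrial clone without another, red the groups fed cbp-1 and blue those fed atfs-1, and grey lines part the arms. ucr-2.2, atp-2 and cox-15 are lower in red than in black in each arm, sdha-1 much less so, and cox-17 is lowest in mrps-5+cbp-1 worms (3.60 ± 0.17 CPM).

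Genes of the same pathway outside the naming rule gave similar counts for the cbp-1 clone. Of 31 further nuclear genes of the respiratory chain, mostly listed by sequence name, 28, 25 and 30 were lower and 0 higher in the 3 arms. Among them were C18E9.4 (ndub-3 in the reference, a complex I subunit) with -0.50 and the complex IV subunit gene cco-2 (cox-5A) with -0.36 in cbp-1 against ev. By contrast, 17 genes for ubiquinone synthesis and for assembly gave 7, 8 and 8 lower and 3, 4 and 0 higher, with medians of 0.02, -0.14 and -0.08. Of the 12 protein genes of mitochondrial DNA, 7, 4 and 3 were lower and 0 higher; in cbp-1 against ev, ctc-2, a complex IV subunit, gave -0.70 and ctb-1, cytochrome b, -0.66. Beside the counts of these lists, 28.5%, 25.3% and 23.4% of all genes tested were lower in the 3 arms. The shares higher were 30.2%, 21.9% and 19.4%. The counts of mitochondrial genes lower in the mixtures were close to the background shares, though their medians were -0.28 with cco-1 and -0.25 with mrps-5. With a term for the library set, 7 of 12 were lower in each mixture, beside 4529 and 4173 of all 16435 genes tested. All libraries were selected for poly(A), and the mitochondrial transcripts were measured under that selection.

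**Figure D3:**
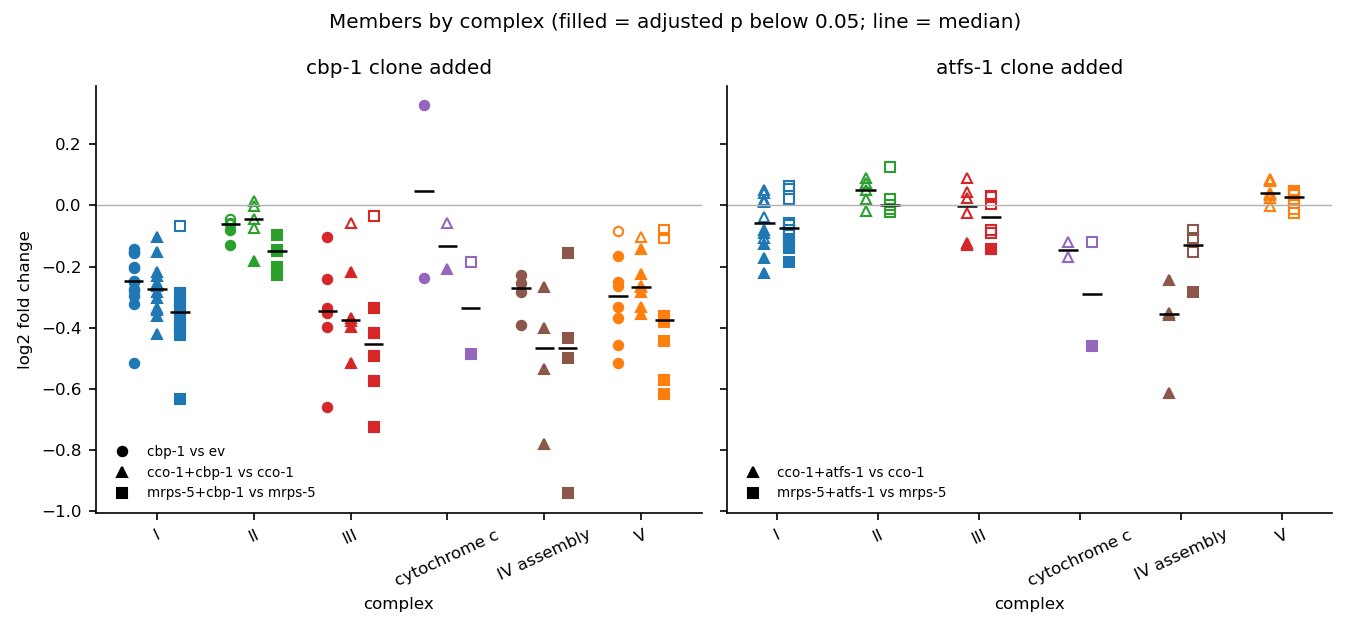
Log2 fold change of each of the 37 genes by complex, for the cbp-1 clone (left, 3 arms) and the atfs-1 clone (right, 2 arms); filled symbols have an adjusted p below 0.05 and lines are medians. With cbp-1 the medians of complex III are -0.34, -0.37 and -0.45 and those of complex II -0.06, -0.04 and -0.15; with atfs-1 the assembly genes of complex IV are lowest in the cco-1 arm.

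Several subunits are encoded by a pair of genes, 1 on the X chromosome and 1 on an autosome, and in most of these pairs the X-linked gene fell more with cbp-1. The log2 ratio of the X-linked to the autosomal gene was taken in each library, and libraries with and without cbp-1 were compared within the 3 arms (9 against 9, exact permutation test, two-sided, 8000 arrangements, smallest possible p = 0.00025). For asb-2 over asb-1 the ratio was lower by a mean of 0.34 with cbp-1, for asg-2 over asg-1 by 0.35, for gas-1 over nduf-2.2 by 0.42, for ucr-2.1 over ucr-2.3 by 0.39 and for ucr-2.2 over ucr-2.3 by 0.57. Each of these 5 gave an exact permutation p = 0.00025, the smallest the test allows (adjusted p = 0.00035 over 7 pairs), and each was lower in all 3 arms. In ev the ratio of ucr-2.2 to ucr-2.3 was -0.57 ± 0.05 and in cbp-1 worms -1.12 ± 0.03. For gas-1 over nduf-2.2 it was 0.10 ± 0.05 in ev and -0.27 ± 0.05 in cbp-1 worms. The exception was sdha-1 over sdha-2, with a mean difference of 0.01 (exact permutation p = 0.692) made of -0.05, 0.14 and -0.05 in the 3 arms. Pairs that share ucr-2.3 are not independent of each other, and reads from near-identical stretches of a pair could be split between them in counting.

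**Figure D4:**
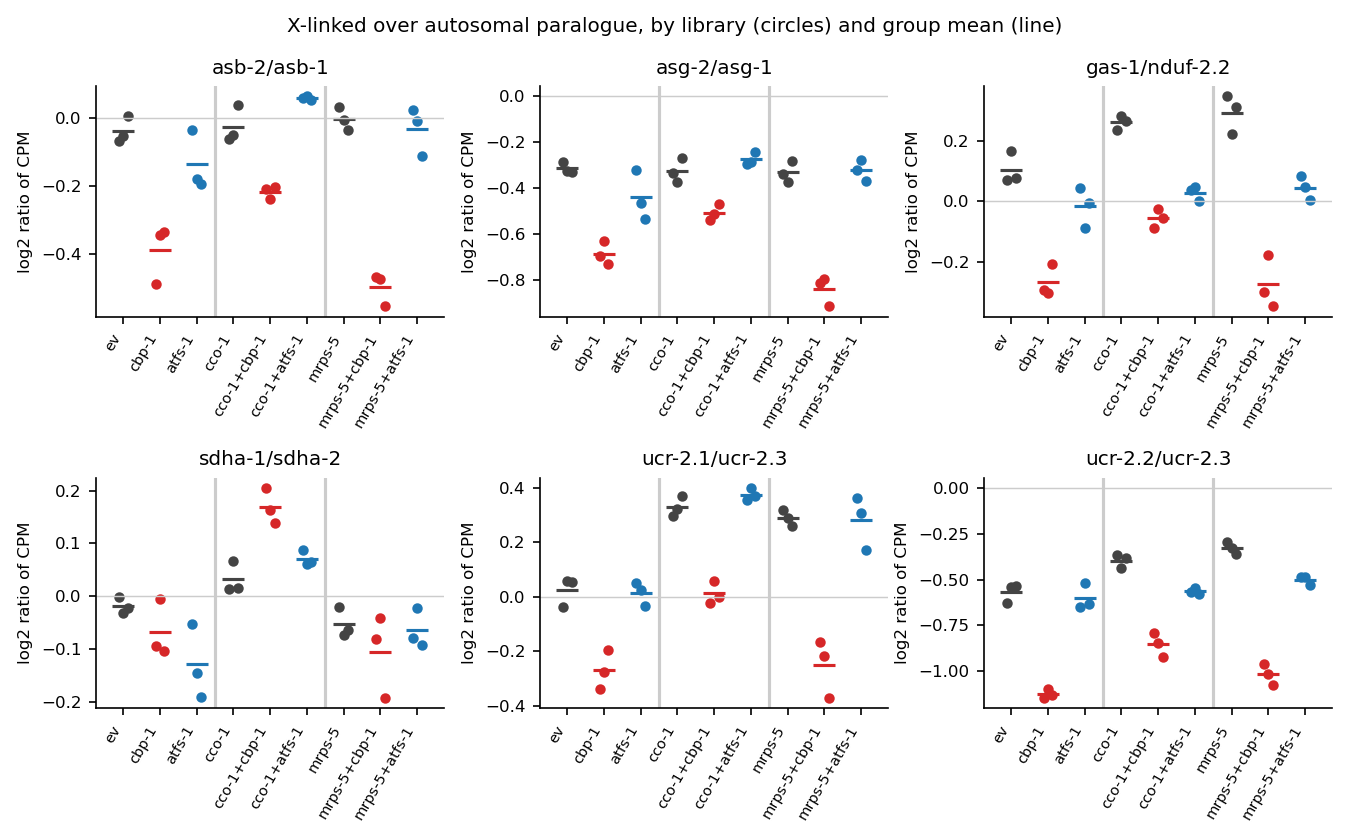
Log2 ratio of the X-linked to the autosomal gene of 6 pairs by library (circles) and group (lines are means of 3). In 5 of the 6 pairs the red groups, fed cbp-1, lie below the black group of the same arm. For sdha-1 over sdha-2 the red mean is above the black in the cco-1 arm (0.17 and 0.03). It is slightly below in the ev arm (-0.07 and -0.02) and the mrps-5 arm (-0.11 and -0.05).

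The X chromosome as a whole leaned the same way. Of 2267 X-linked genes tested, 41.4% were lower in cbp-1 against ev, with a median log2 change of -0.14, beside 26.4% and 0.03 over 14051 autosomal genes. In the mixtures the X-linked medians were -0.08 with cco-1 and -0.14 with mrps-5, beside -0.02 and -0.002 for autosomes. The 6 X-linked members had medians of -0.49, -0.36 and -0.59, and the 31 autosomal members -0.24, -0.26 and -0.34. Of the 31 autosomal members, 83.9% were also lower in cbp-1 against ev. Whether the X-linked members differ from the rest for reasons shared with the whole chromosome was not tested.

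Markers of tissues moved with the cbp-1 clone too. The summed level of 12 body wall muscle markers was 10770 to 10860 CPM in ev and 8909 to 9340 in cbp-1 libraries, with 11 of 12 lower. That of 12 intestine markers was 4610 to 4992 and 2350 to 2463 CPM, with 8 lower and 2 higher. The 20 germline markers summed to 10680 to 10930 and 9669 to 9986 CPM, with 8 lower and 1 higher. Neuron markers went the other way, from 459 to 478 up to 613 to 635 CPM, with 8 of 12 higher, as did sperm markers, from 164 to 166 up to 230 to 240 CPM, with 10 of 11 higher. In the mixtures, muscle markers were lower (7 and 10 of 12) and neuron markers higher (8 and 7 of 12), intestine markers gave 8 and 9 lower and 2 and 3 higher of 12, and sperm markers 1 and 0 higher and 2 and 0 lower of 11. Germline markers gave 6 lower and 2 higher of 20 with cco-1, and 2 lower and 4 higher with mrps-5. Over all genes tested, 28.5% were lower in cbp-1 against ev, 25.3% with cco-1 and 23.4% with mrps-5. The shares higher were 30.2%, 21.9% and 19.4%. Of the 68 markers listed, 1 (the sperm gene msd-1) was at 0 in a library. The part of these tissues in the fall of the 37 genes was not tested.

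Adding the atfs-1 clone lowered 10 of these genes in the cco-1 arm and 7 in the mrps-5 arm. In cco-1+atfs-1 against cco-1, 10 of the 37 were lower and 0 higher (background 11.5% lower, 8.97% higher; 12 lower and 0 higher at an unadjusted p below 0.05). They were all 4 complex IV assembly genes, 4 of 12 in complex I and 2 of 6 in complex III. In complexes II and V 0 of 5 and 0 of 8 passed. cox-17 had 7.80, 7.53 and 7.53 CPM with cco-1 and 4.89, 4.39 and 5.62 with atfs-1 added (-0.61 ± 0.10, adjusted p = 9.62e-06). cox-15 had 102, 97.1 and 105 CPM with cco-1 and 80.2, 79.0 and 78.2 with atfs-1 added (-0.36 ± 0.04, adjusted p = 2.62e-09). The libraries of these groups do not overlap for either gene. cox-10 and cox-11 gave -0.35 ± 0.08 and -0.25 ± 0.06. In complex I gas-1 gave -0.22 ± 0.03 (adjusted p = 1.84e-06) and nuo-4 -0.17 ± 0.03 (5.04e-05), while nduf-7 (-0.09, adjusted p = 0.0405), nuo-5 (-0.13, 0.0462) and, in complex III, ucr-2.2 (-0.12, 0.0445) passed narrowly beside cyc-1 (-0.13, 0.00388).

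In mrps-5+atfs-1 against mrps-5, 7 were lower and 0 higher (background 9.98% lower, 6.85% higher; 11 lower and 0 higher at an unadjusted p below 0.05). They were gas-1 (-0.18), lpd-5 (-0.14), nduf-7 (-0.13) and nuo-4 (-0.11) of complex I, ucr-2.2 (-0.14), cox-15 (-0.28 ± 0.04, adjusted p = 8.84e-07) and cyc-2.2 (-0.46 ± 0.09, adjusted p = 0.000226). The other 3 assembly genes of complex IV did not pass here (cox-17 -0.15 ± 0.10, cox-10 -0.11 ± 0.08, cox-11 -0.08 ± 0.06). In both arms the share of members lower was above the background share. Without the first mrps-5 library 4 were lower. The ratio of gas-1 to nduf-2.2 was lower with atfs-1 by a mean of 0.24 and that of ucr-2.2 to ucr-2.3 by 0.17 over both arms (exact permutation test, 6 against 6 libraries, p = 0.005, the smallest the 400 arrangements allow; adjusted p = 0.0175 over 7 pairs). The ratios of the other X-linked genes to their copies gave 0.01 to 0.03 in mean difference (exact permutation p = 0.26 to 0.59).

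Genes next to the pathway gave larger values with atfs-1. Of the 17 genes for ubiquinone synthesis and assembly, 11 were lower and 0 higher in each arm. coq-1, which makes the ubiquinone side chain, gave -1.50 ± 0.06 with cco-1 and -1.08 ± 0.06 with mrps-5. coq-8, needed for the same synthesis, gave -0.54 and -0.58, sco-1, a copper chaperone for complex IV, -0.59 and -0.32, and phb-1, a prohibitin, -0.40 and -0.29. The 31 other respiratory chain genes gave 5 and 3 lower and 1 and 0 higher, with medians of -0.03 and -0.001. Over all genes tested, 11.5% and 9.98% were lower and 8.97% and 6.85% higher in the cco-1 and mrps-5 arms. Muscle markers, beside these values, summed to 10970 CPM in cco-1 and 10220 in cco-1+atfs-1 worms on average, and intestine markers to 4502 and 5925. With mrps-5 the muscle sums were 11310 and 10500 CPM and the intestine sums 4130 and 4893. The single markers were divided. Of 12 muscle markers, 2 and 3 were lower and 1 and 0 higher in the cco-1 and mrps-5 arms. Of 12 intestine markers, 3 and 2 were lower and 5 and 4 higher. Sperm markers summed to 191 and 159 CPM in the cco-1 arm and to 182.5 and 145 in the mrps-5 arm, with 6 and 7 of 11 lower and 0 higher. The part of these tissues in the atfs-1 values was not tested.

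The mixtures with cbp-1 and atfs-1 were also set against each other directly. With cco-1, 26 of the 37 genes were lower in the cbp-1 than in the atfs-1 mixture and 0 higher (background 22.9% lower, 21.6% higher). With mrps-5, 33 were lower and 1 higher (23.4% and 21.1%). In complex V 7 of 8 were lower in both arms, among them atp-2 with log2 changes of -0.38 and -0.46 and asb-2 with -0.42 and -0.56. In complex IV assembly 0 of 4 passed with cco-1 (median -0.11) and 3 of 4 with mrps-5, cox-17 with -0.79 ± 0.12 (adjusted p = 3.07e-07). The gene higher in the mrps-5 arm was cyc-2.2 (0.28 ± 0.09, adjusted p = 0.0152), and the call was lost without the second mrps-5+cbp-1 or the third mrps-5+atfs-1 library. These values share libraries with those above, so they add the test of the difference between the clones and no further support. The clones were fed at different shares, 25% and 50%.

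No difference between the cco-1 and mrps-5 clones passed the threshold for these genes. In mrps-5 against cco-1, 0 of 37 were called by edgeR in either direction and 0 by DESeq2 (background 6.74% higher, 5.02% lower). At an unadjusted p below 0.05 1 gene was higher, ucr-2.2, with 113.6 to 114.5 CPM in mrps-5 and 102.7 to 110.6 in cco-1 worms (0.11 ± 0.04, adjusted p = 0.141). The log2 differences ran from -0.14 to 0.14, with a median of 0.004. A p above the threshold does not show that the levels are equal. Of the 12 protein genes of mitochondrial DNA, 7 were higher in mrps-5 than in cco-1 worms, ctc-2 by 1.52 and atp-6 by 1.06.

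Against ev, the cco-1 and mrps-5 values depended on the library sets. In cco-1 against ev, 13 genes were higher and 9 lower (background 23.1% and 22.2%), and with a term for the set 17 were higher and 0 lower (6.89% and 9.48%). In mrps-5 against ev, 13 were higher and 6 lower (19% and 18.9%), and with the term 15 and 0 (4.3% and 5.45%). An offset for each library's trend with exon length (gene-length offset) was also fitted in place of the term. It gave 18 higher and 10 lower in cco-1 against ev, beside 3340 and 3955 of all 16435 genes tested. In mrps-5 against ev the offset gave 16 higher and 4 lower, beside 2788 and 3234 of all genes. These comparisons share the ev libraries, so their values are only set side by side. In complex I 7 of 12 were higher in both, and 7 of 12 with the term, though not all the same genes: nuo-1 and nduf-5 did not pass with the term, while nuo-2 did in both, nuo-3 in cco-1 and lpd-5 in mrps-5 against ev. nuo-4, an accessory subunit, rose from 249 ± 2.21 CPM in ev to 295 ± 2.83 in cco-1 worms (0.24 ± 0.03, adjusted p = 4.17e-08; 0.20 with the term). nduf-7 gave 0.22 and 0.26 in the 2 comparisons and 0.20 and 0.24 with the term. cyc-1 gave 0.28 and 0.23, and 0.20 and 0.15 with the term.

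cyc-2.1 had the largest rise with either clone in the fit without the term; with the term cox-17 was higher in cco-1 against ev (0.55, adjusted p = 0.0196). cyc-2.1 had 352, 350 and 380 CPM in ev, 469, 484 and 487 in cco-1 and 490, 477 and 504 in mrps-5 libraries, with no overlap. The changes were 0.41 ± 0.05 and 0.44 ± 0.05 (adjusted p = 3.86e-08 and 1.77e-08), and 0.44 and 0.47 with the term (0.00613 and 0.00598). The assembly gene cox-15 gave 0.21 in both, and 0.33 and 0.32 with the term. The genes called lower did not keep their call with the term, but some kept it with the gene-length offset. ucr-2.3 gave -0.34 and -0.30, and -0.08 and -0.04 with the term. With the offset ucr-2.3 stayed at -0.34 and -0.30 (edgeR test, adjusted p = 7.62e-10 and 5.17e-08). asg-2 was lower in cco-1 against ev (-0.29, adjusted p = 0.0189) and higher with the term (0.26, 0.00208), which reverses its direction. In mrps-5 against ev it did not pass (-0.24, adjusted p = 0.0564) and was higher with the term (0.31, 0.000406). With the offset asg-2 gave -0.19 in cco-1 against ev (edgeR test, adjusted p = 0.025) and -0.13 in mrps-5 against ev (0.142).

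In atfs-1 against ev, 11 genes were lower and 0 higher (background 5.24% lower, 5.54% higher; 21 lower and 2 higher at an unadjusted p below 0.05; by DESeq2 16 were lower and 1 higher). With the term 0 were lower or higher (0.219% and 0.11%). With the gene-length offset 11 were lower and 1 higher, beside 884 and 699 of all 16435 genes tested. The first atfs-1 library is the 1 that shares a set with ev, and without it 21 were lower, without the second or the third 1. Without the second ev library 6 were lower and without the third 4. sdha-1 shows the split: it had 211 CPM in the first atfs-1 library and 183 and 179 in the others, against 212, 223 and 222 in ev. The term rests on these 3 libraries, since no other group has libraries in both sets. Without its first library, the atfs-1 group and the library set cannot be told apart.

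**Figure D5:**
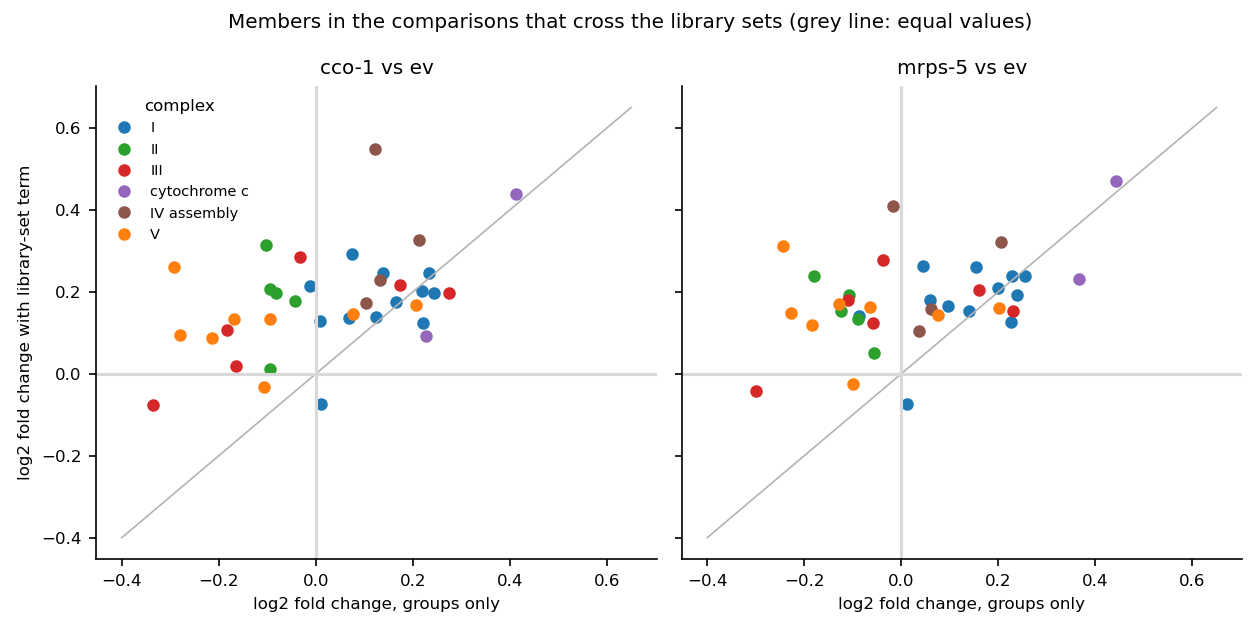
Log2 fold change of the 37 genes against ev, fitted with groups only (x) and with a term for the library set (y), coloured by complex; the grey diagonal marks equal values. cyc-2.1 lies near the diagonal at 0.41 and 0.44 on x, while the complex V and complex II genes with negative values on x lie above it.

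The effect of cbp-1 was compared between arms by interaction terms, which set its change in a mixture against its change from ev. With cco-1, 1 gene had a higher and 2 a lower change (background 9.63% and 15.2%), and with mrps-5 0 higher and 7 lower (8.12% and 15.5%). cox-17 was among those lower in both (-0.39 ± 0.14 and -0.55 ± 0.15, adjusted p = 0.0421 and 0.00703), as was cyc-2.2 (-0.39 ± 0.13 and -0.51 ± 0.13, adjusted p = 0.0197 and 0.00239). With cco-1 these calls were few and rested on single libraries: 0 were lower without the second ev or the third cco-1+cbp-1 library, and 0 higher without the third ev, the first cbp-1, the first or second cco-1, or the first or the third cco-1+cbp-1 library. With the gene-length offset neither gene passed with cco-1 (adjusted p = 0.101 for cox-17 and 0.0707 for cyc-2.2), and both passed with mrps-5 (0.0215 and 0.0141), where the other 5 did not. These interactions share the ev and cbp-1 libraries, and the labels give a share of cbp-1 for the mixtures only.

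Counting could affect single values. Whether reads were counted by strand is not stated in these sources, and 11 of the 37 genes overlap an exon of a gene on the opposite strand and 3 one on the same strand. ucr-2.2 overlaps T10B10.3, which had 58.7 CPM in ev and 53.3 in cbp-1 worms and log2 changes of -0.14, 0.07 and 0.07 in the 3 arms, smaller than those of ucr-2.2. gas-1 overlaps K09A9.6, which had 27.1 CPM in ev and changes of -0.57, -0.37 and -0.32, and nuo-5 overlaps C24B9.3, which fell by 1.46, 1.11 and 1.28 on the log2 scale. On the opposite strand to ucr-2.3 lies zer-1, which had 226 CPM in ev, above the 176 of ucr-2.3. Its log2 changes were 0.14, 0.18 and 0.22 in the 3 arms. Values of these genes, and the ratios of ucr-2.1 and ucr-2.2 to ucr-2.3, are uncertain to the extent that their reads were shared.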

How the data were processed

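RNA-seq of 27 whole-worm libraries was analysed, 3 in each of 9 RNAi groups. The deposited values are raw read counts per gene, made by the authors; the submitters' processing notes name STAR 2.6.0a, HTSeq 0.10.0 and the build WBcel235, and the sources used here do not give a strand setting. Summary lines that name no gene held 8.71 to 17.0% of a library's counts and were left out. Counts were fitted over all 27 libraries with edgeR 4.0.16 in R 4.3.3 (quasi-likelihood, robust, TMM scaling, 1 coefficient per group, genes kept by a minimum count of 10), and p-values were adjusted by Benjamini-Hochberg over the 16435 genes tested; calls have an adjusted p below 0.05. CPM values are TMM-scaled over those genes, and levels between genes are per kilobase of exon in the annotation of the same build. The scripts were tested on simulated counts. For cbp-1 against ev, 56% of changes of 1.25-fold and 74% of 1.5-fold were recovered, with 9 false calls. For cco-1 against ev with a simulated shift by gene length between sets, the fit without the term gave 4011 false calls over 16094 genes. With the library-set term there was 1 false call, but 12% and 52% of the changes were recovered. A gene not called with the term may therefore still differ. With the gene-length offset there were 9 false calls, and 42% and 77% of the changes were recovered. The simulated shift followed exon length alone, which is what the offset models. Gene pairs were compared by exact permutation of libraries within arms. Alternatives were DESeq2 1.42.0, other scalings, filters and sample sets, a replicate block, a library-set term, a gene-length offset and leaving out each library. The library-set term, the offset and the direct comparison of mixtures were chosen after seeing the data. Deviations from the group mean in same-numbered libraries of different groups had correlations of -0.078 to 0.1. These values gave no sign that the numbers pair the libraries. Taken over all genes tested, they cannot exclude a shared culture or day. Any of the 37 genes could be named. Values were given mainly for genes of each complex with the smallest adjusted p, those with the largest changes, and gene pairs. Not all of these have full values here, and ucr-2.1 and asb-1 appear only in ratios. The members and lists were chosen with earlier results of these data known.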

Additional observations from a re-analysis of the deposited data

Results flagged for a closer look

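The change with cbp-1 differed between arms, by edgeR's interaction test, for 3 of the 37 genes with cco-1 and 7 with mrps-5; values are the log2 change in the mixture minus that from ev. Of all genes tested, 9.63% were higher and 15.2% lower in the first test and 8.12% and 15.5% in the second, so with both directions taken as one the members' shares were below the background. With cco-1 it was -0.385 for cyc-2.2 (adjusted p = 0.0197), -0.39 for cox-17 (0.0421) and 0.184 for asb-2 (0.0265). With mrps-5 it was -0.151 for nduf-7 (0.0131), -0.192 for nuo-2 (0.0138), -0.153 for isp-1 (0.0385), -0.249 for cyc-2.1 (0.0103), -0.512 for cyc-2.2 (0.00239), -0.18 for cox-15 (0.0193) and -0.551 for cox-17 (0.00703). Both tests use the same ev and cbp-1 libraries, and the counts moved with the processing as given below.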

How the results depend on the processing

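The counts of genes lower with cbp-1 stayed within 1.5 times under the alternatives run: leaving out a library gave 29 to 32 lower and 1 higher against ev, 29 to 30 with cco-1 and 29 to 31 with mrps-5 (0 higher in both), and the replicate block gave 32, 30 and 31. Leaving out a library gave 7 to 9 lower in cco-1+atfs-1, 4 to 7 in mrps-5+atfs-1 (0 higher in both), 0 in mrps-5 against cco-1, 24 to 25 lower and 0 higher between the cco-1 mixtures and 30 to 33 lower and 0 to 1 higher between the mrps-5 mixtures. It gave 11 to 13 higher and 7 to 8 lower in cco-1 against ev, 12 to 14 and 3 to 6 in mrps-5 against ev (3 without the first or the second mrps-5 library), 0 to 2 and 1 to 21 in atfs-1 against ev, 0 to 2 and 0 to 2 for the cco-1 interaction, and 0 and 5 to 10 for the mrps-5 interaction. The cause of the changes that follow was not tested. With the library-set term 0 genes were lower in cco-1, mrps-5 and atfs-1 against ev, 2 higher in cco-1+atfs-1 and 1 higher in mrps-5 against cco-1; the interactions gave 3 higher and 5 lower with cco-1 and 14 lower with mrps-5. The term reversed 13 values: against ev in cco-1, sdha-2 0.012, ucr-1 0.106, ucr-2.2 0.019, asg-1 0.095, asg-2 0.261, atp-4 0.088 and atp-5 0.133; in mrps-5, sdhb-1 0.153, asg-1 0.148, atp-4 0.119 and atp-5 0.171; in atfs-1, ucr-1 0.005 and atp-5 0.04. With the gene-length offset, with or without the replicate block, 1 was higher in atfs-1 against ev and 3 in cco-1+atfs-1, and the interactions gave 7 higher and 0 lower (cco-1) and 2 higher and 2 lower (mrps-5). Fits of only the groups compared gave 12 lower in mrps-5 and 0 in atfs-1 against ev, 5 higher in cco-1+atfs-1, 11 lower in mrps-5+atfs-1, 1 higher in mrps-5 against cco-1, and interactions of 5 higher and 4 lower (cco-1) and 3 and 3 (mrps-5). Upper-quartile scaling gave 3 lower in mrps-5 and 1 higher in atfs-1 against ev. RLE scaling gave interactions of 2 higher and 1 lower (cco-1) and 4 lower (mrps-5), and the filter of 5 CPM in 3 libraries 0 higher and 6 lower and 14 lower, with 1 higher in atfs-1 against ev. No filter gave 2 higher and 1 lower for the cco-1 interaction and 1 higher in mrps-5+atfs-1. DESeq2 gave 1 higher in atfs-1 against ev and interactions of 1 lower (cco-1) and 1 higher and 4 lower (mrps-5). The replicate numbers gave no sign of pairing the libraries, and the block gave 7 lower in cco-1+atfs-1 and 7 lower in mrps-5 against ev. Low counts limit cox-17, whose standard errors were 0.10 to 0.12 on the log2 scale with cbp-1.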
